A study of Mus musculus with 4 samples.

Results

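The 10 genes described here encode heat shock proteins and their co-chaperones: Hspa1a, Hspa1b, Hspb1, Dnajb1, Hsph1, Hspa8, Hsp90aa1, Bag3, Hspd1 and Hspe1. They were chosen by name, with earlier results of these data known, as the stress-inducible and constitutive chaperones and the partners that work with them. A probe was assigned to a gene through its RefSeq accession. All 10 were found among the 33269 features of the array, with 15 probes between them; 5 genes had 2 probes and 5 had 1. RNA came from the brains of male C57BL/6J mice aged 9 weeks, 6 h after permanent middle cerebral artery occlusion with an intraluminal filament, a model of ischemic stroke. Ischemic core and ischemic penumbra, the deepest zone of lost blood flow and the zone around it, were each set against the matching healthy piece, labelled healthy core and healthy penumbra. Every tissue carried the label saline, an injection of 1 µl into a cerebral ventricle given right after the occlusion; animals given the peptide PACAP38, which the protocol also mentions, are not analysed here.

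Each of 4 two-colour arrays held ischemic RNA in one dye and healthy RNA of the same region in the other. Core replicates 1 and 2 and penumbra replicates 3 and 4 formed a dye-swapped pair per region, with ischemic RNA in Cy5 on replicates 1 and 3 and in Cy3 on replicates 2 and 4. The submitters describe 3 mice per group with neurological grades G1 and G2, but not whether their RNA was pooled, nor whether healthy tissue was the opposite hemisphere or that of other animals. The arrays of a pair were therefore counted as 1 replicate: each error is the SD across the arrays of a pair, dye bias included, and no value carries a measure of the spread between mice. A gene was called by size where its mean ratio reached 2-fold, 1 on the log2 scale, and each array gave at least 1.5-fold in the same direction. These are pieces of whole tissue, so that more RNA per cell and more cells of a type that holds the RNA cannot be told apart.

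Cells answer protein damage with the heat shock response, in which heat shock factor 1 (HSF1) binds heat shock elements, alternating inverted copies of the short unit NGAAN, in the promoters of chaperone genes. HSP70 proteins bind exposed hydrophobic stretches of unfolded proteins in a cycle driven by ATP; J-domain proteins such as Dnajb1 start the cycle, and nucleotide exchange factors such as Hsph1 and the BAG proteins reset it. Small heat shock proteins such as Hspb1 hold unfolded proteins without using ATP, and Hspd1 and Hspe1 form the chaperonin that folds proteins in mitochondria. Induction of HSP70 and of Hspb1 is well known in the ischemic brain, HSP70 mostly in stressed neurons and in vessels, and Hspb1 mostly in glia and vessels.

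The promoter sequences are shown because Hspa1a and Hspa1b, the pair with the highest ratios, are near copies of each other. Another reason is that exact matches to units of the heat shock element differ in number between the genes. Units with a mismatched base were not searched for. RefSeq promoter windows on build GRCm38.p6 were found for 8 of the 10 genes; Hspa8 and Hsp90aa1 had no entry. The 250 bases before the transcription start are given 5′ to 3′ on the gene's own strand, for Hspa1a at chr17:34972157-34972406 (minus strand) and for Hspa1b at chr17:34959239-34959488 (minus strand), with 2 adjoining units of a heat shock element (GAANNTTC or TTCNNGAA) in capitals.
Hspa1a: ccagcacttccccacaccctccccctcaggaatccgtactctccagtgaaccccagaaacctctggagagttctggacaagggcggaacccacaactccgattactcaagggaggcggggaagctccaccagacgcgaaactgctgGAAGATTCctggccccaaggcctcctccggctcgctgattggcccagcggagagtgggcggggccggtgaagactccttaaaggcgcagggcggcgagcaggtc
Hspa1b: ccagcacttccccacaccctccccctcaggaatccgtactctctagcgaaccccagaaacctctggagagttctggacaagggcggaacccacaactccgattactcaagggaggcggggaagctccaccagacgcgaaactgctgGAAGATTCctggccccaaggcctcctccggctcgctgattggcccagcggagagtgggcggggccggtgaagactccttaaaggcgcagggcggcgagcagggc
Of these 250 bases, 247 were identical. The 3 differences, with the Hspa1a base first, its position counted from 1 at the window's 5′ end and the Hspa1b base last, were C44T, T47C and T249G. The match stood at bases -104 to -97 from the start in both.

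Shorter stretches show the matches in 3 other promoters, with the same capitals: Hspb1 at chr5:135887796-135887835 (plus strand), Hsph1 at chr5:149636346-149636385 (minus strand) and Hspe1 at chr1:55088053-55088082 (plus strand).
Hspb1: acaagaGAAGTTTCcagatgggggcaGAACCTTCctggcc
Hsph1: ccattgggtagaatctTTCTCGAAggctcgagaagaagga
Hspe1: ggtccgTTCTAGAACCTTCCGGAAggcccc
The Hspb1 stretch held 2 separate matches, and the Hspe1 stretch an unbroken run of 3 overlapping ones. The same run lay in 1 of the 2 Hspd1 windows, since Hspd1 and Hspe1 are neighbours read in opposite directions. A search of both strands of the 250 bases found a match of 2 units in 6 of the 8 genes and a match of 3 units (GAANNTTCNNGAA or TTCNNGAANNTTC, which contains the shorter motif) in Hspd1 and Hspe1; no match was found in the windows of Dnajb1 and Bag3. Of all 32851 promoter windows of the same length, 12.8% held the 2-unit motif and 0.466% the 3-unit motif. With the heat shock genes described here left out, 7 of 1367 genes with a 2-unit match (0.512%) were called higher in ischemic core, against 48 of 10950 (0.438%) among all genes with a window. In ischemic penumbra 6 of 1383 (0.434%) were called higher, against 38 of 11064 (0.343%). Keeping the heat shock genes in raised the share with a match to 0.728% in the core and 0.576% in the penumbra, against 0.475% and 0.37% among all genes with a window. Of the 51 genes with a 3-unit match, 0 were called in the core and 0 in the penumbra. These matches are letters in a window and say nothing of whether a factor was bound.

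On the arrays, the median signal of a spot ranged from 192 to 225.5 in Cy3, over a background of 64 to 66, and from 284 to 310 in Cy5, over a background of 70 to 71; 76.1% to 79.4% of spots were well above background with 0 saturated. All 15 probes of the heat shock genes were well above background in both tissues of every array, apart from 1 Hspa8 probe on core replicate 1, where its spot was marked as an outlier and left out. Over all features the median SD between the arrays of a pair was 0.10 log2 in both regions, and 0.15 for features with a mean log2 intensity of 14 or more. All ratios are relative to the bulk of the features on an array. The 10 spike-in control probes, RNA added in known amounts, had median log2 ratios of 0.47 in the core and 0.46 in the penumbra. Scaling to them would lower every ischemic over healthy ratio by that amount. For the 10 heat shock genes, the directions that then turn are given where they arise. Ratios of the other gene lists and markers are given without this scaling, and those between 0 and that amount would then lie below 0. All 10 neuron markers and all 7 astrocyte markers were well above background in all 4 tissues, as any piece of brain would give, so they do not check the labels of region or ischemia.

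In ischemic core, 4 of the 10 genes rose at least 2-fold over healthy core: Hspa1a, Hspa1b, Hspb1 and Dnajb1. Over all 24538 features in the core, 76 were called higher (0.31%) and 0 lower. In ischemic penumbra, 3 rose over healthy penumbra, Hspa1a, Hspa1b and Dnajb1, where 60 of 24930 features rose that far (0.241%) and 1 fell. Hspa1a and Hspa1b are near copies and a probe of one may bind the other, so their calls may reflect a shared signal. The spike-in scaling kept these 4 and 3 genes called, while the split over all features became 31 higher and 29 lower in the core, and 29 higher and 41 lower in the penumbra. The median log2 ratio of the 10 genes was 0.90 in the core and 0.63 in the penumbra, against -0.01 over all features in both. All 10 genes were above 0 on both core arrays, as were 26.9% of all features; in the penumbra 9 were, as were 30.3% of all features.

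**Figure D1:**
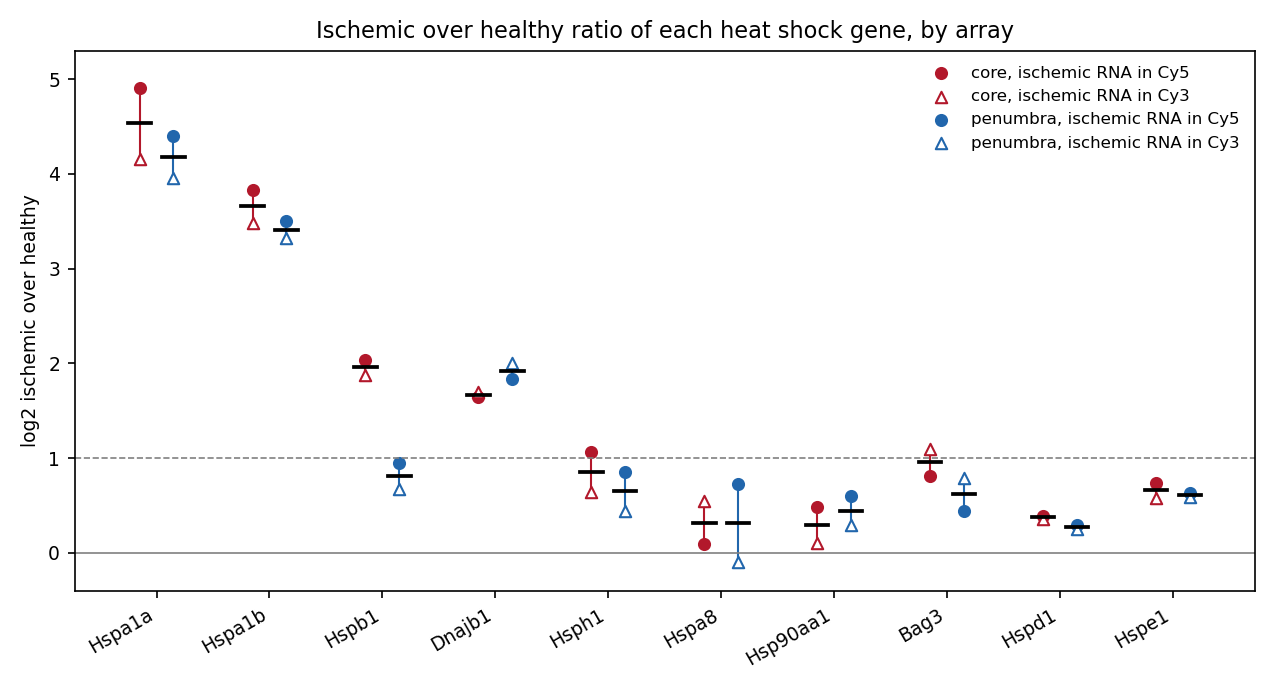
Log2 ratio of ischemic over healthy tissue (vertical axis) for each of the 10 genes, with 1 point per array (circles, ischemic RNA in Cy5; triangles, ischemic RNA in Cy3), a bar at the mean of each pair, core in red and penumbra in blue. The dashed line marks 2-fold. Hspa1a and Hspa1b lie above 3 on all 4 arrays, and Hspb1 is the gene whose core and penumbra points lie farthest apart. For Hspa8 the core and penumbra points come from different probes.

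Hspa1a and Hspa1b encode the stress-inducible cytosolic HSP70, with proteins that are almost the same. Hspa1a had log2 ratios of 4.91 and 4.16 on the core arrays, and 4.40 and 3.96 on the penumbra arrays. All 4 values lay far above 0 and those of the regions overlapped, with the higher value in each pair on the array with ischemic RNA in Cy5. The means were 4.54 ± 0.53 in the core (23.2-fold) and 4.18 ± 0.31 in the penumbra (18.1-fold), the highest ratio of all features in either region. A further Hspa1a probe gave 4.36 ± 0.34 in core and 3.98 ± 0.09 in penumbra.

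Hspa1b had 3.83 and 3.48 on the core arrays, and 3.50 and 3.32 on the penumbra arrays, ranges that also overlapped. Its means, 3.66 ± 0.25 in the core (12.6-fold) and 3.41 ± 0.13 in the penumbra (10.6-fold), ranked 3 from the top in both regions. A dimmer Hspa1b probe read 3.17 ± 0.04 in core and 2.77 ± 0.02 in penumbra. The transcripts are near copies and a probe of one may bind the other, so the separate values of Hspa1a and Hspa1b are uncertain, and the ratios of their probes, 2.77 to 4.54, show only that HSP70 signal rose in both regions.

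The levels behind these ratios, as normalized log2 intensity of a single dye, put ischemic core first. The main Hspa1a probe stood at 17.11 ± 0.24 in ischemic core, 16.51 ± 0.15 in ischemic penumbra, 12.57 ± 0.77 in healthy core and 12.33 ± 0.45 in healthy penumbra. The 2 healthy pieces differed by less than their SDs, and the 2 ischemic pieces by more. Hspa1b followed the same order, with 14.30 ± 0.16 in ischemic core, 13.47 ± 0.14 in ischemic penumbra, 10.64 ± 0.41 in healthy core and 10.06 ± 0.27 in healthy penumbra. HSP70 signal was well above background in healthy tissue on every array.

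Hspb1 encodes the small heat shock protein known in mice as HSP25, which binds unfolding proteins and actin filaments. Its log2 ratios were 2.04 and 1.88 on the core arrays, and 0.95 and 0.67 on the penumbra arrays. Every core value lay above every penumbra value. The mean was 1.96 ± 0.11 in the core (3.89-fold), rank 15 of the features, and 0.81 ± 0.20 in the penumbra (1.75-fold), rank 108. In the penumbra both arrays passed 1.5-fold but the mean stayed under 2-fold, so it was not called there, and the spike-in scaling put that mean at 0.34.

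The core ratio of Hspb1 exceeded the penumbra ratio by 1.16 log2 (2.23-fold), which passed the rule for a difference between regions: at least 1 log2, with the core arrays both above or both below the pair of penumbra arrays. It was the only one of the 10 genes to pass, and 10 of 25254 features (0.0396%) passed in this direction; it ranked 7 over all features. Subtracting arrays of the same dye orientation, a pairing chosen after the data were seen, gave 1.09 for core replicate 1 minus penumbra replicate 3 and 1.22 for core replicate 2 minus penumbra replicate 4. A linear model over arrays without a dye term put its adjusted p in limma at 0.22, and with a dye term at 2.4e-06; both measure only the spread between arrays.

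In single-dye levels, Hspb1 stood at 13.79 ± 0.00 in ischemic core, 12.80 ± 0.06 in ischemic penumbra, 11.83 ± 0.11 in healthy core and 11.99 ± 0.14 in healthy penumbra. Ischemic core lay above ischemic penumbra by 1.04 in Cy3 and 0.95 in Cy5, a mean of 0.99 ± 0.06 that just missed 2-fold. Healthy core lay at -0.16 ± 0.03 relative to healthy penumbra. The healthy pieces thus ran slightly the other way from the ischemic ones.

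The pieces themselves differed in their make-up, and cell type markers are given beside the Hspb1 result for that reason. Of the 7 choroid plexus and ependyma markers, 7 were called lower in ischemic core than in ischemic penumbra and 6 lower in healthy core than in healthy penumbra, with medians of -4.04 and -3.36. Their summed level ran from 10.89 to 10.95 in ischemic core, 10.91 to 10.94 in healthy core, 15.12 to 15.23 in ischemic penumbra and 14.47 to 14.55 in healthy penumbra (log2), and Ttr was not well above background in ischemic core. Of the 8 striatum markers, 6 were called lower in ischemic core than in ischemic penumbra and 7 lower in healthy core than in healthy penumbra. Their summed level was 16.75 to 16.92 in ischemic core, 16.36 to 16.67 in healthy core, 17.55 to 18.23 in ischemic penumbra and 17.64 to 18.13 in healthy penumbra.

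Markers of vessels and astrocytes, which are known to carry Hspb1, had ratios closer to 0. Of 8 endothelial markers 0 were called in either region, with medians of 0.11 in core and 0.04 in penumbra, and summed levels of 14.58 to 14.72 in ischemic core, 14.55 to 14.61 in healthy core, 14.54 to 14.66 in ischemic penumbra and 14.46 to 14.58 in healthy penumbra. Of 7 astrocyte markers 0 were called, with medians of -0.07 in core and 0.08 in penumbra, and summed levels of 17.12 to 17.55 in ischemic core, 17.33 to 17.74 in healthy core, 17.02 to 17.43 in ischemic penumbra and 17.27 to 17.54 in healthy penumbra. Of 6 mural cell markers 0 were called, with medians of -0.11 in core and 0.00 in penumbra, and summed levels of 14.32 to 14.35 in ischemic core, 14.37 in healthy core, 14.43 to 14.57 in ischemic penumbra and 14.38 to 14.48 in healthy penumbra.

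Meningeal and choroid plexus markers had lower ischemic over healthy ratios in core than in penumbra, the reverse of Hspb1. Striatum and neutrophil markers, given below, had higher ones in core, as Hspb1 did. All 7 meningeal fibroblast markers were above 0 on both penumbra arrays, with a median ischemic over healthy ratio of 0.46, while the core median was -0.14 and 5 of the 7 were below 0 on both core arrays; 0 were called in either region. The core minus penumbra median was -0.69, and 0 of the 7 lay above 0. Between pieces, core over penumbra, their median was 0.67 for healthy tissue and 0.12 for ischemic tissue. Only Zic1 was called there, at -1.12 between ischemic pieces. The summed level of the 7 markers was 13.82 to 13.87 in ischemic core and 13.96 to 14.06 in healthy core. It was 14.14 to 14.18 in ischemic penumbra and 13.66 to 13.69 in healthy penumbra. All 7 choroid plexus and ependyma markers were likewise above 0 on both penumbra arrays, with a median of 0.63 there against 0.01 in the core, a median difference of -0.68, and 0 calls in either region.

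For the striatum list the core minus penumbra median was 0.32, with all 8 markers above 0. Of the 7 oligodendrocyte markers 0 were called by ischemia, with medians of 0.19 in core and 0.15 in penumbra tissue, but all 7 were lower on both dyes in core than in penumbra pieces, with medians of -0.76 between ischemic and -0.77 between healthy pieces; only Mobp, at -1.01 between healthy pieces, was called. Their summed level was 17.79 to 18.00 in ischemic core, 17.49 to 17.87 in healthy core, 18.18 to 18.58 in ischemic penumbra and 17.91 to 18.44 in healthy penumbra. Of the 7 microglia markers 0 were called, with medians of -0.01 in core and 0.05 in penumbra tissue, and of the 10 neuron markers 0, with medians of -0.09 in core and -0.12 in penumbra tissue.

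Of the neutrophil markers, 3 of the 7 measured were called higher in the core and 3 of the 6 measured in the penumbra. The medians, 0.95 over the 7 in core and 1.03 over the 6 in penumbra, cover different sets of genes. The core minus penumbra median was 0.44 over 7 markers, and all 7 differences were above 0. Their summed level was 13.84 to 13.91 in ischemic core, 11.84 to 11.89 in healthy core, 13.47 to 13.81 in ischemic penumbra and 12.06 to 12.16 in healthy penumbra. Camp was not well above background in any of the 4 tissues, Ltf and Ngp in neither healthy piece, and Ltf also not in ischemic penumbra. The part that any of these cell types has in the heat shock ratios was not tested.

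Dnajb1, the J-domain protein that delivers unfolded proteins to HSP70 and starts its ATP cycle, rose in both regions. Its log2 ratios were 1.65 and 1.70 on the core arrays, and 1.84 and 2.00 on the penumbra arrays. The penumbra values lay above the core values on every array, the reverse of Hspb1, though by little. The means were 1.67 ± 0.03 in the core (3.19-fold), rank 22, and 1.92 ± 0.12 in the penumbra (3.78-fold), rank 8. A dimmer Dnajb1 probe gave the same order of means, 1.35 ± 0.19 in core and 1.60 ± 0.19 in penumbra. Its array values overlapped, with 1.48 on core replicate 2 and 1.46 on penumbra replicate 3. The difference between regions was -0.24 (-0.19 and -0.30 within the dye orientations), under the size needed for a call. Its level was 16.18 ± 0.17 in ischemic core, 16.21 ± 0.30 in ischemic penumbra, 14.51 ± 0.14 in healthy core and 14.30 ± 0.19 in healthy penumbra, so that the 2 ischemic pieces were alike within their SDs.

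Bag3, a co-chaperone that ties HSP70 to small heat shock proteins and to autophagy, fell just short of a call in the core. It had log2 ratios of 0.81 and 1.10 on the core arrays, and 0.44 and 0.79 on the penumbra arrays. All 4 values were above 0, and the lowest core value, 0.81, barely cleared the highest penumbra value, 0.79. The means were 0.96 ± 0.20 in the core (1.94-fold) and 0.62 ± 0.24 in the penumbra (1.53-fold). Core replicate 2 alone, at 1.10, would have passed 2-fold.

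Hsph1, the HSP110 protein that swaps the nucleotide of HSP70 and helps it to undo aggregates, had 1.07 and 0.64 on the core arrays, and 0.85 and 0.44 on the penumbra arrays. In each region the array with ischemic RNA in Cy5 was the higher, and the regions overlapped. The means were 0.85 ± 0.30 in the core (1.8-fold) and 0.65 ± 0.29 in the penumbra (1.57-fold). Neither was called, and core replicate 1 alone would have passed 2-fold.

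The constitutive cytosolic chaperones were not called in either region. Hspa8, the HSP70 that cells make without stress, read 0.09 and 0.55 on the core arrays with its dimmer probe, a mean of 0.32 ± 0.32 (1.25-fold). The same probe gave 0.04 and 0.52 on the penumbra arrays, a mean of 0.28 ± 0.34. The brighter Hspa8 probe had 0.73 and -0.10 on the penumbra arrays, a mean of 0.32 ± 0.58, and -0.10 on core replicate 2, so that the probes ran opposite ways with the dye. Their SDs were as large as their means, or larger.

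Hsp90aa1, the stress-responsive form of cytosolic HSP90, which matures kinases and steroid receptors, had 0.49 and 0.10 on the core arrays, and 0.60 and 0.29 on the penumbra arrays. The means were 0.29 ± 0.28 in the core and 0.44 ± 0.22 in the penumbra (1.36-fold), with overlapping values. Under the spike-in scaling, Hspa8 stood at -0.16 in core and -0.15 in penumbra, and Hsp90aa1 at -0.18 in the core and -0.02 in the penumbra, so no direction is read for either gene.

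The mitochondrial chaperonin pair had small ratios that were close between arrays. Hspd1, the HSP60 ring, had 0.39 and 0.36 on the core arrays, and 0.30 and 0.25 on the penumbra arrays. Its means were 0.38 ± 0.02 in the core (1.3-fold) and 0.27 ± 0.04 in the penumbra (1.21-fold), and a dimmer probe gave 0.44 ± 0.14 in core and 0.29 ± 0.14 in penumbra. The spike-in scaling turned Hspd1 below 0, to -0.10 in the core and -0.19 in the penumbra. Hspe1, the HSP10 lid of the ring, had 0.74 and 0.58 on the core arrays, and 0.63 and 0.59 on the penumbra arrays. Its means, 0.66 ± 0.11 in the core (1.58-fold) and 0.61 ± 0.03 in the penumbra (1.53-fold), overlapped and stayed above 0 under that scaling, at 0.19 in the core and 0.15 in the penumbra. Although the pair share the promoter run shown above, the Hspe1 ratio was the higher of the pair on all 4 arrays.

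**Figure D2:**
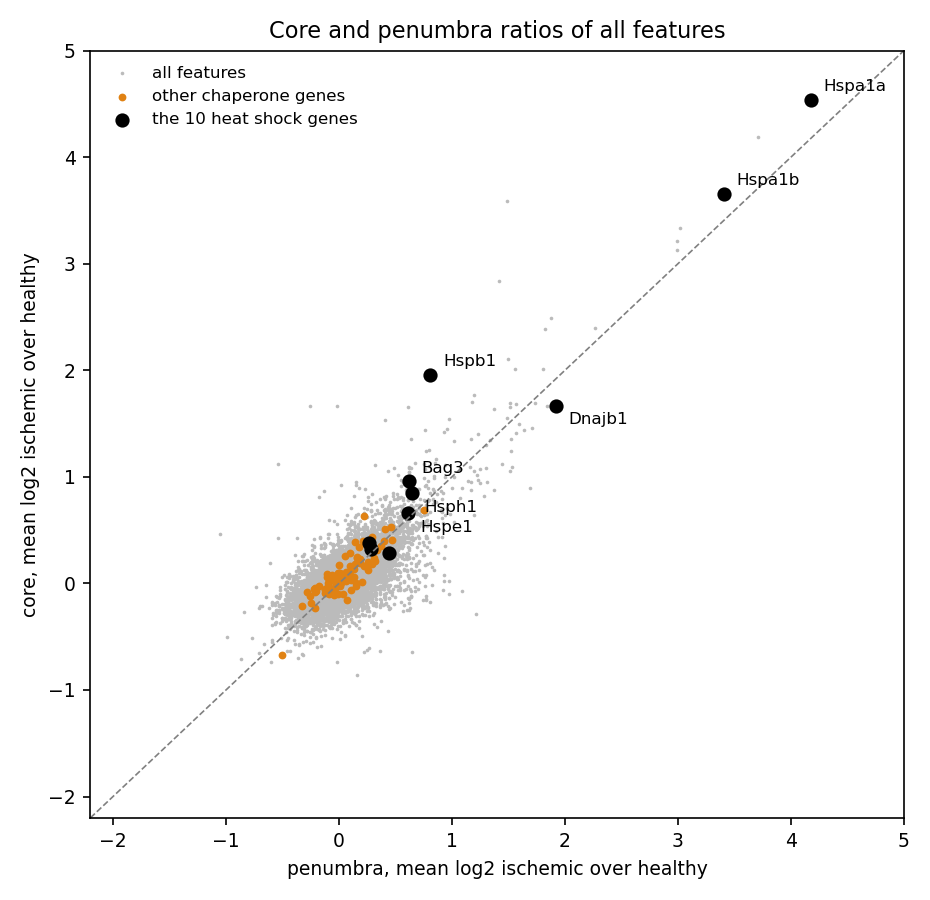
Mean log2 ratio of ischemic over healthy tissue in the core (vertical axis) against that in the penumbra (horizontal axis); each dot is a feature, black for the 10 heat shock genes and orange for other chaperone genes, and the dashed line marks equal ratios. Hspb1 lies above the line, at 1.96 in core and 0.81 in penumbra, and Dnajb1 a little below it, at 1.67 in core and 1.92 in penumbra.

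Between the regions, the other 9 genes differed by less than 1 log2. The core minus penumbra difference was 0.36 for Hspa1a, 0.34 for Bag3, 0.25 for Hspa1b, 0.20 for Hsph1, 0.10 for Hspd1, 0.05 for Hspe1, 0.03 for Hspa8 and -0.15 for Hsp90aa1. Core arrays lay above penumbra arrays for Hspb1, Bag3 and Hspd1, 3 of the 10, as for 15.7% of all features. They lay below penumbra arrays for Dnajb1 alone, as for 14.8% of all features. These counts use the brightest probe of a gene, and the dimmer probes of Hspd1 and Dnajb1 had overlapping values in the regions. Hspa1a shows how far a single array can move such a value: its difference was -0.02 without core replicate 1 and 0.73 without core replicate 2.

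The arrays of a pair differed by dye orientation in a like way in both regions. The mean Cy5 over Cy3 bias of a pair was 0.21 in core and 0.20 in penumbra for Hsph1, 0.20 and 0.16 in those regions for Hsp90aa1, and -0.14 and -0.17 for Bag3. For the differences between regions taken within the dye orientations, 8 of the 10 genes had an SD under 0.1. The median SD over all features was 0.07, so most features lay under 0.1 too. In 9 of the 10 genes both orientations gave the same side of 0, as they did in 66.4% of all features; Hspe1, at 0.10 and -0.01, was the exception. Hspa1a had the widest gap, 0.51 against 0.20, and Bag3 gave 0.37 and 0.31.

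**Figure D3:**
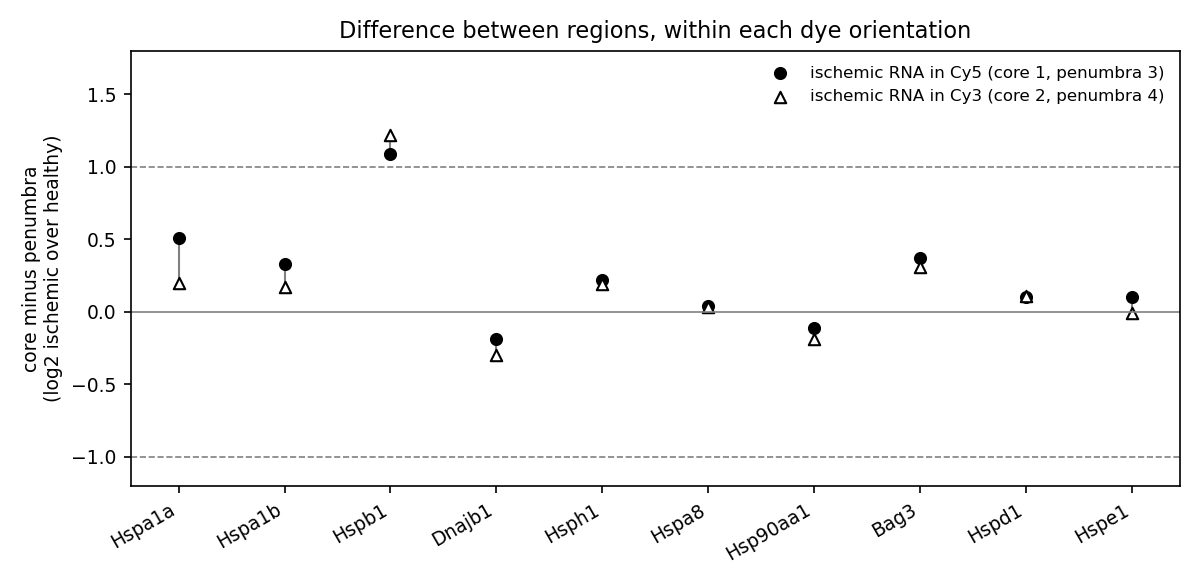
Core minus penumbra difference of the log2 ischemic over healthy ratio (vertical axis) for each gene, taken between arrays with ischemic RNA in Cy5 (circles, core replicate 1 minus penumbra replicate 3) and in Cy3 (triangles, core replicate 2 minus penumbra replicate 4). Dashed lines mark 1 and -1. Both Hspb1 points, 1.09 and 1.22, lie above 1; both Dnajb1 points, -0.19 and -0.30, lie below 0.

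Levels of the pieces were compared within each dye. No gene of the 10 was called between healthy core and healthy penumbra, where 78 of 24899 features were called higher (0.313%) and 204 lower. Hspa1b had the highest value there, 0.48 in Cy3 and 0.68 in Cy5 (0.58 ± 0.14), and Bag3 and Hspb1 the lowest, both at -0.16; the median of the 10 was 0.02. Between ischemic core and ischemic penumbra, 107 of 24880 features were called higher (0.43%) and 227 lower; none was among the 10. After Hspb1, the largest values were 0.83 ± 0.02 for Hspa1b and 0.60 ± 0.09 for Hspa1a, and the median was 0.17.

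The mean levels of each uncalled gene lay within 1 log2 over the 4 tissues. Hsph1 stood at 15.97 ± 0.04 in ischemic core and 15.12 ± 0.27 in healthy core, and at 15.79 ± 0.08 in ischemic penumbra and 15.14 ± 0.20 in healthy penumbra. Hsp90aa1 stood at 16.08 ± 0.13 in ischemic core and 15.78 ± 0.15 in healthy core, and at 16.17 ± 0.03 in ischemic penumbra and 15.73 ± 0.19 in healthy penumbra. Bag3 stood at 11.13 ± 0.15 in ischemic core and 10.18 ± 0.05 in healthy core, and at 10.96 ± 0.00 in ischemic penumbra and 10.34 ± 0.24 in healthy penumbra. Hspd1 ranged from 15.15 to 15.59 over the 4 tissues, Hspe1 from 13.64 to 14.39, and the dimmer Hspa8 probe from 14.39 to 14.78. Probes differ in brightness for reasons other than transcript number, so these levels compare tissues within a gene and not genes.

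**Figure D4:**
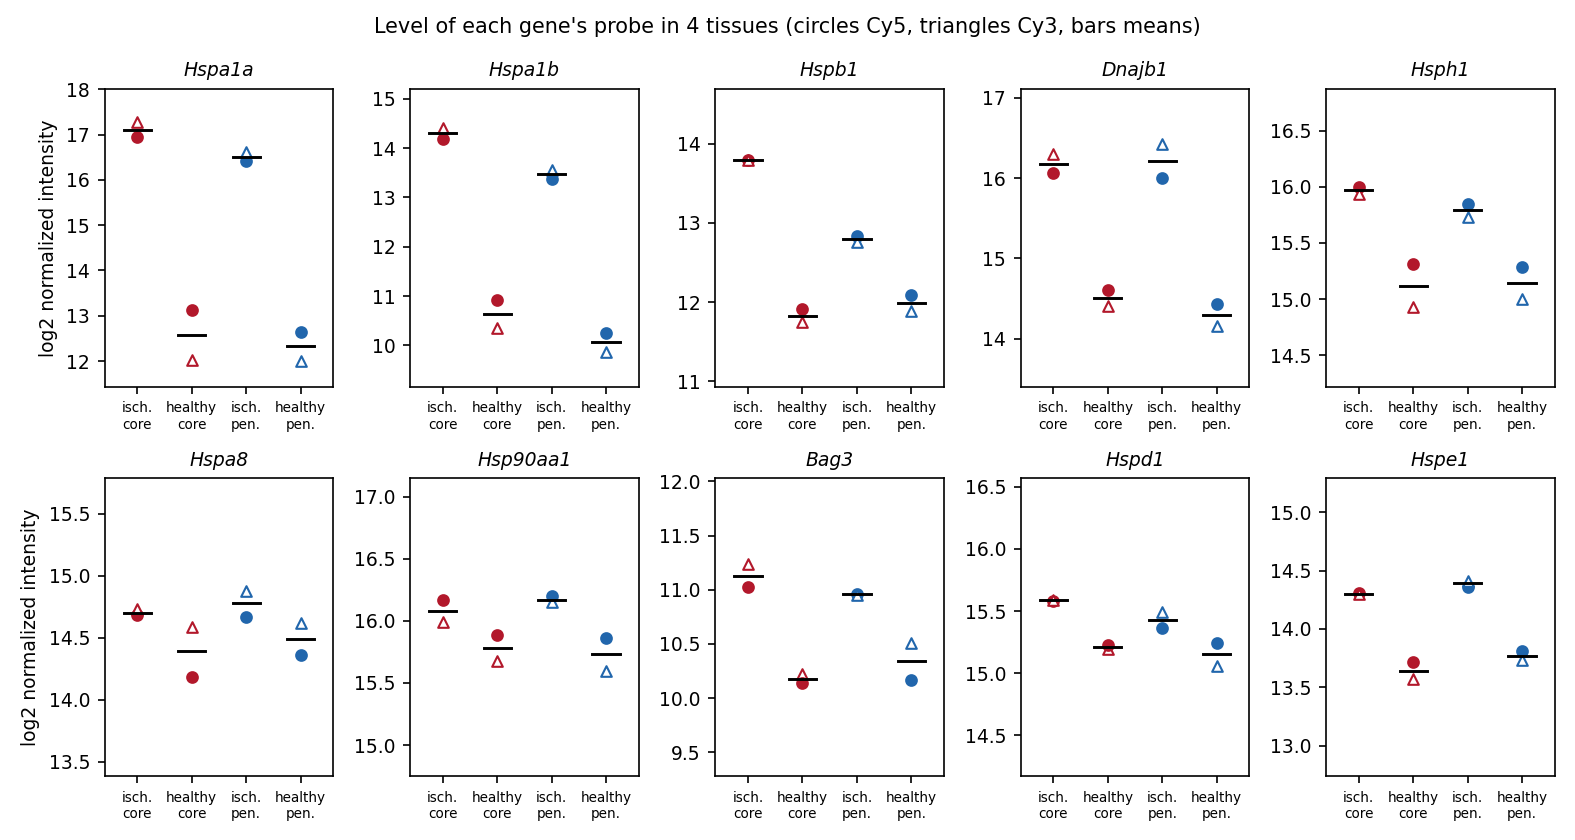
Normalized log2 intensity (vertical axis, a range of its own in each panel) of the probe of each gene in ischemic core, healthy core, ischemic penumbra and healthy penumbra; circles are Cy5, triangles Cy3 and bars the means. Ischemic levels of Hspa1a lie between 16.41 and 17.28 and healthy ones between 12.01 and 13.12, and for Hspb1 the core and penumbra differ in ischemic tissue and hardly in healthy tissue.

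Other chaperone genes had ratios closer to 0. In 10 further lists with 101 genes, chosen with earlier results of these data known, 94 were on the array and measured. Over all features, 0.31% were called higher in the core and 0.241% in the penumbra. Of the 94 genes 0 were called in either region, which is near those shares. Their median log2 ratio was 0.06 in the core and 0.04 in the penumbra, with 68.1% above 0 in the core and 61.7% in the penumbra, where 47.5% and 47.6% of all features were. Single genes ranged from -0.67 to 0.69 in the core and from -0.50 to 0.75 in the penumbra. Dnajb4, a J-domain protein close to Dnajb1, was the highest in both regions, and Fkbp5, an HSP90 co-chaperone induced by glucocorticoids, the lowest in both.

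Within the HSP70 and HSP110 families, 0 of 8 other members were called. Their medians were 0.09 in core and 0.10 in penumbra. The highest was Hspa1l, the testis form of HSP70 that neighbours Hspa1a, at 0.39 in the core, and Hspa13 at 0.29 in the penumbra; the lowest in both was Hspa12a, at -0.23 in core and -0.21 in penumbra. For Hsp90ab1, the constitutive cytosolic HSP90, the ratio was 0.02 in core and 0.06 in penumbra.

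Of 13 other J-domain proteins 0 were called, with medians of 0.05 in the core and -0.01 in the penumbra; Dnajc5, which guards synaptic vesicle proteins, was the lowest, at -0.12 in the core and -0.26 in the penumbra. Of 7 other small heat shock proteins 0 were called by ischemia. Hspb3, a small heat shock protein best known from muscle, was the highest of them, at 0.53 in core and 0.46 in penumbra, and the lowest were Cryaa, at -0.10 in the core, and Hspb2, at -0.08 in the penumbra. Hspb3 also differed between the pieces, higher in healthy core than in healthy penumbra by 1.32 and in ischemic core than in ischemic penumbra by 1.39, the only call among the 94 in either comparison. The 18 other co-chaperones had medians of 0.05 in the core and 0.01 in the penumbra, with Hspbap1 at 0.40 in both.

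Chaperones of other compartments and systems stayed near 0 as groups. The cytosolic chaperonin TRiC and its partner prefoldin had medians of 0.08 in the core and 0.06 in the penumbra over 13 genes, from -0.02 (Cct6a) to 0.20 (Pfdn2) in the core and from -0.03 (Vbp1) to 0.26 (Cct5) in the penumbra. The 10 other mitochondrial chaperones and proteases had medians of -0.01 in the core and 0.01 in the penumbra, from -0.10 (Clpp) to 0.10 (Grpel1) in the core and from -0.22 (Grpel2) to 0.11 (Hscb) in the penumbra. The 14 chaperones of the endoplasmic reticulum had a median of 0.12 in both regions; Hspa5, the HSP70 of that compartment, was the highest, at 0.51 in core and 0.41 in penumbra, and Dnajc10 the lowest, at -0.18 in core and -0.25 in penumbra.

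The heat shock factors and their regulators had medians of 0.03 in the core and -0.04 in the penumbra over 5 genes. Hsf1, the factor that drives the response, had the highest core value, 0.17; Hsbp1, which binds it, had the highest penumbra value, 0.15; and Hsf4, the lens form, had the lowest in both, -0.08 in the core and -0.28 in the penumbra. Over 5 other genes known as HSF1 targets the medians were 0.33 in the core and 0.18 in the penumbra. Hmox1, heme oxygenase, was the highest in the core at 0.63. Sqstm1, an autophagy receptor, was the lowest, at -0.08 in core and -0.21 in penumbra.

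**Figure D5:**
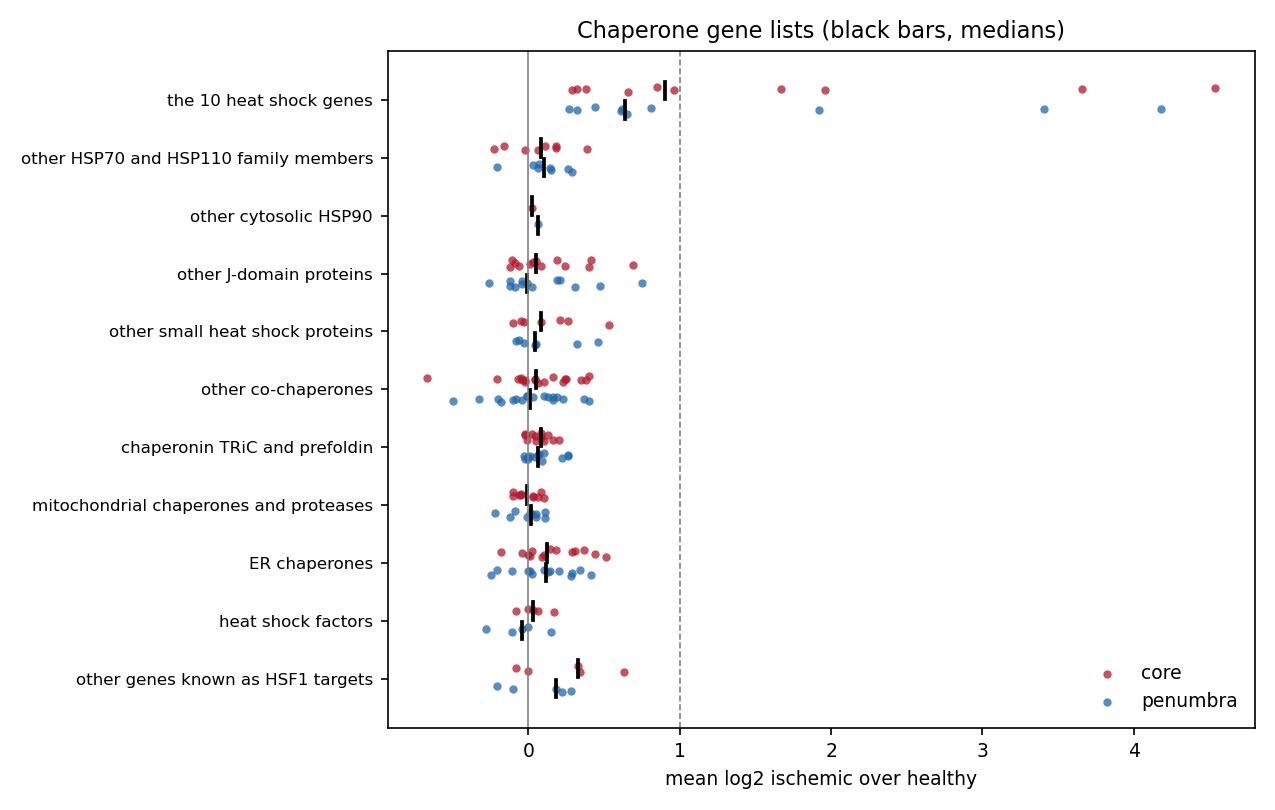
Mean log2 ratio of ischemic over healthy tissue (horizontal axis) of the 10 heat shock genes and of 10 further chaperone lists, with 1 point per gene, core in red above penumbra in blue, and black bars at the medians; the dashed line marks 2-fold. Points beyond 2-fold occur in the top row alone, where the medians are 0.90 in core and 0.63 in penumbra.

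For each called heat shock gene, the genes with the nearest pattern were sought among 13990 features with a symbol, by Euclidean distance over the ratios of the 4 arrays. Nearest to Hspa1a was Npas4, a transcription factor induced by neuronal activity, at a distance of 0.99, with means of 4.19 in the core and 3.71 in the penumbra; Hspa1b came next at 1.69, and Fos at 2.37. Nearest to Hspa1b were Fos, a subunit of the AP-1 factor, at 0.73, Atf3, a stress-induced factor, at 0.87 and Npas4 at 0.90. Nearest to Hspb1 were Ccl7, a chemokine for monocytes, at 0.52, with 1.66 in the core and 0.61 in the penumbra, then Gem, a small GTPase, at 0.67 and Ccn1, a matrix protein, at 0.69. Nearest to Dnajb1 were Egr4 and Fosb, both immediate early transcription factors, at 0.35 and 0.44, and Gadd45g, a growth arrest gene, at 0.45. With 4 arrays, the measure mostly matches genes of like ratio, and the genes near Hspb1 were ones whose ratio was also higher in the core than in the penumbra.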

How the data were processed

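RNA of ischemic and healthy tissue was measured on 4 two-colour Agilent arrays of 1 slide, 2 per region. The deposited scanner files hold the intensity of each spot per dye, from Agilent Feature Extraction 11.0.1.1 according to the submitters' processing notes. A deposited table of the whole series holds log10 ratios that equal processed Cy5 over processed Cy3 signal to within 5e-06, with medians of -0.0215 and 0.00516 (core replicates 1 and 2) and -0.0199 and -0.0115 (penumbra replicates 3 and 4), so scale and direction are known. Here, median spot signals were background-corrected with limma 3.58.1 in R 4.3.3 (normexp, offset 50), followed by loess on each array. Control spots were left out, as were spots marked as outliers. Ratios were turned to ischemic over healthy, and spots of a probe were averaged. A probe was kept if 1 or both tissues were well above background on both arrays of the region, and the brightest probe with complete values stood for a gene. Single-dye levels were scaled further by the Aquantile method, and calls between pieces asked for a mean of 2-fold and 1.5-fold in each dye. Of 41174 probes, 23374 were named by accession through a GRCm38.p6 table. Named were the 10 genes, the 3 nearest patterns of each called gene, and the called, highest and lowest genes of each chaperone list; 1 gene that this rule takes is not reported here. The genes, lists and rules were chosen with earlier results of these data known. The calling steps were tested on simulated arrays. Python 3.11.15, pandas 2.3.3, numpy 2.4.6, scipy 1.17.1 and matplotlib 3.10.9 were used for tables and plots. Alternatives covered signal, background, normalization, scaling, filters, probes, thresholds, arrays left out and limma over arrays. Slide and scan batches could not be tested with 1 slide.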

Additional observations from a re-analysis of the deposited data

Results flagged for a closer look

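Hspb1 stood out because its response differed between the regions: the ischemic over healthy ratio was 1.96 ± 0.11 in the core and 0.81 ± 0.20 in the penumbra, a difference of 1.16 log2. The test of the difference in limma over arrays with a dye coefficient gave an adjusted p of 2.4e-06, and without that coefficient 0.22. Both fits took each array as a separate observation, whereas the calls by size counted each pair as 1 replicate. The arrays of a pair may not be separate replicates, so both adjusted p values measure only the spread between arrays. Spread between mice was not measured.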

How the results depend on the processing

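The calls of Hspa1a, Hspa1b and Dnajb1 in both regions, and of Hspb1 in the core, held under all 13 alternatives of each comparison. No called value changed sign. Some alternatives could not remove a call: the 1.5-fold threshold is looser than the main rule, and the filter settings left the values of these genes unchanged. In limma over arrays without a dye coefficient, the adjusted p was 0.00037 to 0.0018 for the 4 called in the core. For the 3 called in the penumbra, the adjusted p in the same limma fit was 0.00098 to 0.0024. Both ranges measure only the spread between arrays. Genes near the threshold moved: at 1.5-fold, 6 genes were called in the core (Hsph1 and Bag3 added) and 5 in the penumbra (Hspb1 and Hspe1 added), and leaving out either core array gave 5 to 5, with Bag3 at 1.10 without replicate 1 or Hsph1 at 1.07 without replicate 2. Leaving out a penumbra array gave 3 to 3. For the difference between regions, limma without a dye coefficient called 0 of the 10 genes (and 2 of all features), against 1 in the main setting; leaving out any array gave 1 to 1, with Hspb1 between 1.01 and 1.30. Between ischemic pieces, 0 genes became 1 with median centring or with Cy3 alone (Hspb1 at 1.05 and 1.04) and 2 at 1.5-fold (Hspa1b and Hspb1). Uncalled genes among the 10 that the spike-in scaling turned below 0 are given above. Counts over all features, higher and lower together, moved with Agilent's processed signals, offset 0 and the 1.5-fold threshold, in that order: 244, 150 and 224 against 76 in the core; 219, 115 and 229 against 61 in the penumbra; 179, 56 and 110 against 15 for the difference, which was 24 to 35 with an array left out; 913, 521 and 857 against 282 between healthy pieces (461 with Cy5 alone); and 1061, 633 and 998 against 334 between ischemic pieces (544 with Cy3 alone). The causes were not tested. No paired analysis was possible because the regions share no replicate numbers, apart from the pairing of arrays by dye orientation, under which 1 gene was called (Hspb1, 1.09 and 1.22); the dye coefficient, which takes up that pairing, gave Hspb1 an adjusted p of 2.4e-06 in limma, against 0.22 without it. Signal over background did not limit the 10 genes. The number of arrays did, and so did labels that do not say whether the arrays of a pair were separate replicates.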
